A study of Mus musculus with 2 samples.

Results

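The EP300 peaks of mouse chromosome 6 were taken as every interval that the authors' EP300 peak lists place on that chromosome, together with the H3K4me1 regions there. They numbered 822 of the 8451 peaks of EP300 replicate 1, 991 of the 10351 peaks of replicate 2, and 3008 of the 59923 H3K4me1 regions. The chromosome was chosen by the number of EP300 peaks in these same lists, which was already known to be in surplus. The size of that surplus is therefore given as a description, and the only tests made concern how evenly it was spread. Chromosomes 5 and 8, which are of similar length, served as the yardstick.

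The material was melan-a, an immortalized melanocyte line of the strain C57BL/6 Ink4a -/-, so that the deleted Ink4a locus was common to all libraries. Chromatin immunoprecipitation and sequencing (ChIP-seq) was carried out on untreated cells with anti-p300 in one sample and anti-H3K4me1 in the other. Each sample stood for 2 replicates, with 2 EP300 lists and 1 combined H3K4me1 list. Nothing in the labels says that replicates came from separate cultures, so the spread between the EP300 lists may be technical. The ChIP libraries held 31439027 and 32355042 tags after filtering, and their controls 20010848 and 24669749. How deeply the H3K4me1 libraries were sequenced is not known. Coordinates are those of mm9. No gene positions of that build were used, so neither the melanocyte label could be checked against marker genes nor a peak assigned to a gene.

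EP300 (p300) is a histone acetyltransferase that is brought to DNA by transcription factors and acetylates the neighbouring histones. Its peaks are widely used to locate active enhancers. Monomethylation of histone H3 at lysine 4 (H3K4me1) marks the nucleosomes on either side of active and primed enhancers, so a bound enhancer often appears as an EP300 peak in a gap between H3K4me1 regions. In pigment cells such elements are bound by factors such as MITF, whose own gene lies on mouse chromosome 6.

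The surplus was made up for the most part of peaks seen in a single EP300 list and far from H3K4me1, and it ran along the whole chromosome. In each list, all 30 bins of 5 Mb held at least 1.5 times as many such peaks per Mb as chromosomes 5 and 8, a level reached by 40.7% and 17.9% of all autosomal bins in replicates 1 and 2. No bin was called uneven by the exact binomial test after adjustment (0% called). That test would not have called a bin at the yardstick level either. For some of the lowest bins the exact 95% interval of the ratio to the yardstick included 1. Loci shared by both lists were 1.35 times as frequent per H3K4me1 region as on the yardstick chromosomes (exact 95% interval 1.14 to 1.59). Per Mb they were only 1.17 times as dense (0.987 to 1.37). H3K4me1 regions were sparser, at 0.863 times the yardstick.

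Peaks were sorted into 3 classes. A shared locus was a merged interval in which peaks of both lists overlapped by at least 1 bp, and the remaining peaks were divided by whether an H3K4me1 region lay within 1000 bp. Chromosome 6 held 236 of the 3573 shared loci. In replicate 1, 240 peaks (29.2%) were shared, 168 were single-list peaks with H3K4me1 and 414 (50.4%) were single-list peaks without it. In replicate 2 the numbers were 239 (24.1%), 212 and 540 (54.5%). On chromosomes 5 and 8, 45.5% and 35.8% of peaks were shared, and 25.2% and 34.0% were single-list peaks without H3K4me1. Chromosome 6 had the lowest share of shared peaks among the 19 autosomes in both lists, and the highest share of single-list peaks without H3K4me1.

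Per Mb, single-list peaks without H3K4me1 stood at 2.83 in replicate 1, compared with 0.778 on chromosomes 5 and 8. The ratio was 3.64 (exact 95% interval 3.08 to 4.31). In replicate 2 they stood at 3.69 compared with 1.33, a ratio of 2.77 (2.42 to 3.17). The next highest autosome in each list was chromosome 18, with 1.38 and 2.70 per Mb. These intervals cover counting error only. At the yardstick rate chromosome 6 would have held 370 fewer peaks of all classes in replicate 1 and 418 fewer in replicate 2. Single-list peaks without H3K4me1 made up 81.1% and 82.5% of that surplus, shared peaks 9.28% and 8.11%, and single-list peaks with H3K4me1 9.63% and 9.35%.

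The threshold of 1000 bp divided few peaks near it. In replicate 1 the farthest single-list peak counted as having H3K4me1 lay 993 bp from a region and the nearest one counted as lacking it 1008 bp away, and in replicate 2 these distances were 979 bp and 1033 bp. Most peaks of the latter class were remote from the mark, with a median distance of 65548.5 bp in replicate 1 and 66107.5 bp in replicate 2. Of these peaks 55.1% and 55.9% lay over 50 kb from any region, compared with 45.8% and 41.6% on chromosomes 5 and 8. The shares were not set against the length of sequence that far from a region, and regions were sparser on chromosome 6.

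Over all peaks, shared ones included, the ratio to the yardstick was lowest from 1 to 1000 bp from H3K4me1 and highest beyond 50000 bp. Between these distances it rose at each step in replicate 2 but not in replicate 1. Peaks that overlapped a region, 351 and 395 in replicates 1 and 2, were 1.25 (1.09 to 1.43) and 1.22 (1.07 to 1.39) times as dense per Mb as on chromosomes 5 and 8. Those from 1 to 1000 bp away were 0.938 (0.644 to 1.35) and 0.981 (0.669 to 1.42) times as dense. From 1001 to 5000 bp the ratios were 2.13 (1.29 to 3.51) and 1.37 (0.956 to 1.95), and from 5001 to 20000 bp they were 3.58 and 2.06. From 20001 to 50000 bp they were 2.64 and 2.91, and in replicate 2 another autosome reached 2.84 there. Beyond 50000 bp they reached 4.27 (3.37 to 5.44) and 3.67 (3.02 to 4.48), compared with 1.72 and 2.71 on the highest other autosome. Each rate is per Mb of the whole chromosome, not of the sequence at that distance. Because H3K4me1 regions were sparser on chromosome 6, at 0.863 times the yardstick per Mb, the ratios also depend on how much sequence lay at each distance. That length was not measured.

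**Figure D1:**
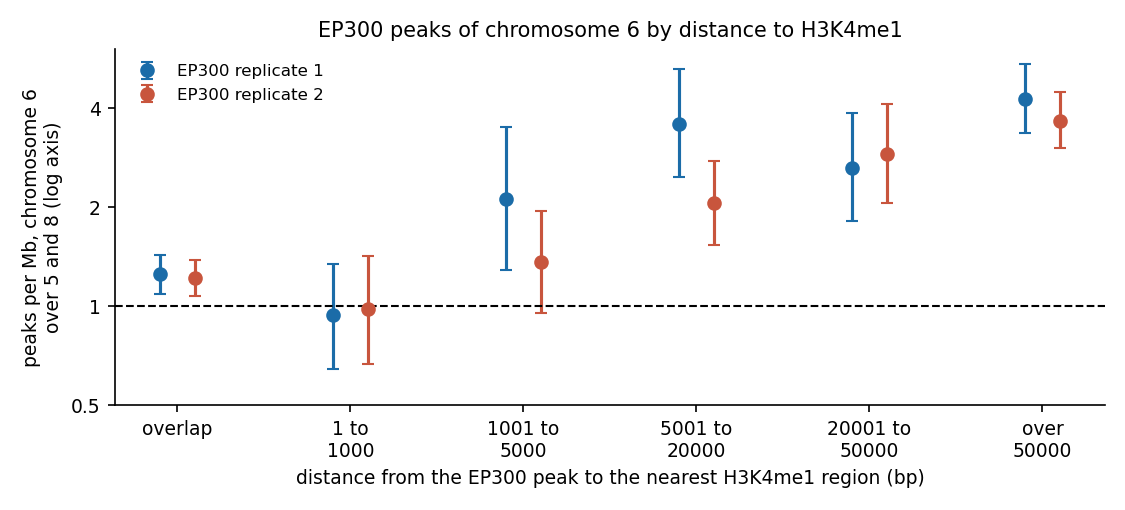
EP300 peaks per Mb on chromosome 6 divided by the same rate on chromosomes 5 and 8 (log axis), by distance from the peak to the nearest H3K4me1 region in bp. Points are the 2 replicate lists and bars are exact 95% intervals for counting error. Rates are per Mb of the whole chromosome, not of the sequence at each distance. Ratios lie between 0.938 and 1.25 for peaks that overlap a region or lie within 1000 bp of one, and at 4.27 and 3.67 beyond 50000 bp.

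Bin by bin, the peaks without H3K4me1 were found along the whole chromosome, in numbers that varied between bins. The 28 full bins held 6 to 26 of them in replicate 1, with a median of 14, and 11 to 28 in replicate 2, with a median of 19. The other autosomes had 438 full bins, with medians of 5 and 6 and highest values of 14 and 22. Only 1 of those bins in replicate 1 and 3 in replicate 2 reached the chromosome 6 median, whereas 163 and 54 reached its lowest full bin. On chromosomes 5 and 8 the medians were 4 and 4 in replicate 1 and 6 and 7 in replicate 2.

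**Figure D2:**
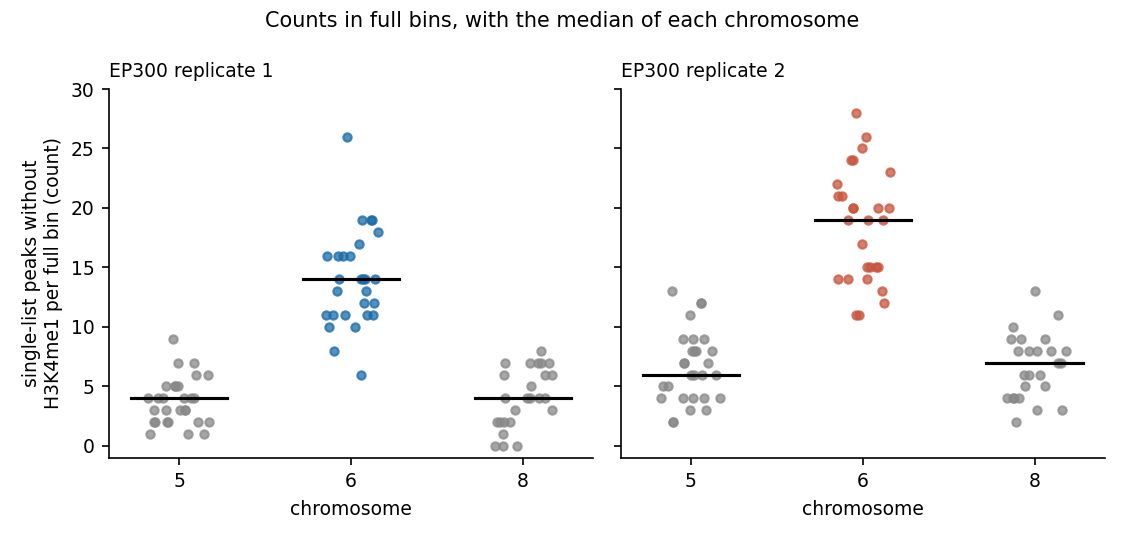
Number of single-list EP300 peaks without H3K4me1 in each full 5 Mb bin of chromosomes 5, 6 and 8, for the 2 replicate lists. Each point is 1 bin, spread sideways only for legibility, and lines are medians. The chromosome 6 medians are 14 and 19 and those of chromosomes 5 and 8 are 4 to 7.

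Counts above the yardstick as such were common in replicate 1, with 69.8% of all 504 autosomal bins, and less so in replicate 2, with 53%. Both lists together reached 1.5 times the yardstick in 30 of 30 bins of chromosome 6, 1 of 31 on chromosome 5, 1 of 27 on chromosome 8 and 9 of 19 on chromosome 18, and in 11.9% of all autosomal bins. Among the 474 autosomal bins outside chromosome 6, 30 (6.33%) did so.

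The highest ratio in replicate 1 belonged to the bin at 80 to 85 Mb, with 26 peaks and 6.68 times the yardstick. It was followed by the first bin, with 8 peaks in 1.85 Mb covered by the lists (5.56 times), and by the bins at 60 to 65, 70 to 75 and 75 to 80 Mb with 19 peaks each (4.88 times). The lowest were those at 65 to 70 Mb with 6 peaks (1.54 times), at 55 to 60 Mb with 8 (2.06 times), and at 115 to 120 and 140 to 145 Mb with 10 each (2.57 times).

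In replicate 2 the highest were the bins at 125 to 130 Mb with 28 peaks (4.20 times), 30 to 35 Mb with 26 (3.90 times) and 20 to 25 Mb with 25 (3.75 times). The lowest were those at 5 to 10 and 120 to 125 Mb with 11 peaks each (1.65 times) and at 55 to 60 Mb with 12 (1.80 times). The bin at 55 to 60 Mb was among the lowest in both lists, whereas no bin was among the highest in both. Over the 28 full bins the counts of the lists had a Pearson r of -0.05 (Spearman rho -0.13), a description of bins that share their H3K4me1 list.

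**Figure D3:**
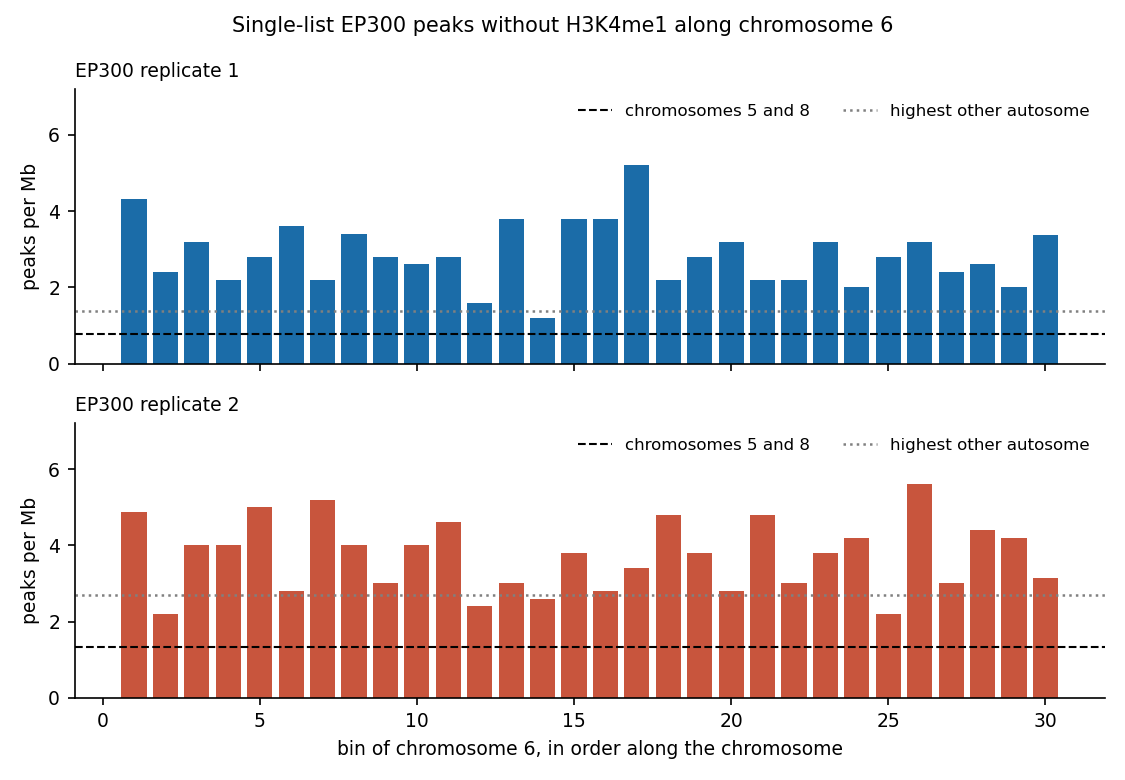
Single-list EP300 peaks without H3K4me1 per Mb in the 30 bins of chromosome 6, in order, for replicates 1 and 2. The dashed line is the mean rate of chromosomes 5 and 8 (0.778 and 1.33 per Mb) and the dotted line that of the highest other autosome (1.38 and 2.70). All bars stand above the dashed line in both lists.

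Evenness was tested by holding the total of the chromosome fixed and sharing it out over its bins by length, with an exact two-sided binomial test for each bin and Benjamini-Hochberg adjustment over all autosomal bins. No bin was called on chromosome 6 in either list, nor on any other autosome (0% called). Without adjustment, 2 of 30 bins in replicate 1 and 1 of 30 in replicate 2 had a binomial p under 0.05, compared with 4.37% and 6.75% of autosomal bins. These were the bin at 80 to 85 Mb (26 peaks against 14.1 for an even spread, exact binomial adjusted p = 0.659) and that at 65 to 70 Mb (6 peaks, exact binomial adjusted p = 0.881) in replicate 1, and that at 125 to 130 Mb (28 against 18.5, exact binomial adjusted p = 0.634) in replicate 2.

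The test had limited reach. A full bin would have been called on its own at 31 or more peaks in replicate 1, or 2.19 times an even spread, and at 37 or more in replicate 2, or 2.00 times. On the low side, such a bin would have been called at 1 or fewer peaks in replicate 1 and 3 or fewer in replicate 2. Full bins of chromosomes 5 and 8 had medians of 4 and 4 in replicate 1 and 6 and 7 in replicate 2. A bin at the yardstick level would therefore not have been called, so the test cannot tell whether single bins lacked the surplus. Smaller local departures were not detectable with these counts. The chi-square statistic of the counts over bins, divided by its degrees of freedom, was 1.16 in each list, where counting error alone gives 1 on average. For H3K4me1 regions per Mb the same measure was 39.9. Leaving out each bin in turn kept the ratio of the chromosome between 3.53 and 3.71 in replicate 1 and between 2.72 and 2.81 in replicate 2.

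Longer segments gave the same picture. Over the 6 consecutive segments of 25 Mb, the ratio for peaks without H3K4me1 was 3.59, 3.75, 3.39, 4.42, 3.19 and 3.47 in replicate 1. In replicate 2 it was 2.92, 2.85, 2.46, 2.64, 2.70 and 3.07. The exact 95% intervals of the segments overlapped one another within each list, and the lowest bound of any segment was 1.91. On chromosomes 5 and 8 the same ratio ran from 0.645 to 1.49 in replicate 1 and from 0.66 to 1.47 in replicate 2.

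The density of these peaks did not follow the local density of H3K4me1 in replicate 1. The bin at 60 to 65 Mb had only 5 H3K4me1 regions and held 19 peaks of this class in replicate 1 and 15 in replicate 2. The bin at 75 to 80 Mb had 7 regions, with 19 and 14 peaks. The richest bin, at 85 to 90 Mb, had 304 regions and held 11 and 24. Over the 28 full bins the counts correlated with the number of H3K4me1 regions with a Pearson r of -0.07 in replicate 1 and 0.49 in replicate 2. For single-list peaks with H3K4me1 the values were 0.82 and 0.90, and for shared loci 0.74. Where bins held fewer than 50 regions, peaks without H3K4me1 were 3.73 and 2.48 times as dense as in bins of the same kind on chromosomes 5 and 8. Where they held 50 to 99 regions the ratios were 3.86 and 2.68, and where they held 100 or more they were 3.38 and 2.92.

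Shared loci, which are the EP300 sites seen in both replicates, showed a smaller surplus. Chromosome 6 held 0.0785 of them per H3K4me1 region, compared with 0.0581 on chromosomes 5 and 8. That ratio, 1.35 (exact 95% interval 1.14 to 1.59), was the highest of the 19 autosomes, followed by chromosome 18 with 0.0749 per region. Per Mb the density was 1.61 compared with 1.38, which gave chromosome 6 rank 5 of 19. Since H3K4me1 regions were themselves sparser, at 20.6 per Mb compared with 23.8 and 16th of the 19 autosomes, the ratio per region was above the ratio per Mb. Single-list peaks with H3K4me1 gave 1.47 (1.20 to 1.80) and 1.42 (1.19 to 1.69) per region, the highest of the 19 autosomes in both lists, and 1.27 (1.04 to 1.55) and 1.23 (1.03 to 1.46) per Mb.

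Of the 28 bins of chromosome 6 with at least 20 H3K4me1 regions, 18 (64.3%) had more shared loci per region than the yardstick, as did 52.5% of all such autosomal bins, 64.0% of those of chromosome 8 and 70.6% of those of chromosome 18. The level of 1.5 times was reached by 11 bins (39.3%), compared with 20.8% of autosomal bins, 6 of 31 on chromosome 5, 6 of 25 on chromosome 8 and 6 of 17 (35.3%) on chromosome 18. The highest ratios were 3.00 in the first bin with 4 loci over 23 regions, 2.67 at 135 to 140 Mb with 11 over 71, and 2.37 at 140 to 145 Mb with 15 over 109. The lowest were 0.31 at 120 to 125 Mb with 2 loci over 111 regions, 0.56 at 105 to 110 Mb with 2 over 62, and 0.69 at 20 to 25 Mb with 1 over 25.

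When the shared loci of the chromosome were shared out by H3K4me1 regions, the exact two-sided binomial test again called no bin, on chromosome 6 or on any other autosome (0% called). Without adjustment, 3 of 28 bins had a p under 0.05, compared with 8.71% of autosomal bins. They were the bins at 120 to 125 Mb (2 loci against 8.63, exact binomial adjusted p = 0.333), 135 to 140 Mb (11 against 5.52, exact binomial adjusted p = 0.522) and 140 to 145 Mb (15 against 8.48, exact binomial adjusted p = 0.522). Shared out by length instead, as an alternative, 4 bins of chromosome 6 and 70 autosomal bins in all were called, so that shared loci followed H3K4me1 along the chromosome more closely than they followed length. By 25 Mb segments the ratio per region was 1.65, 1.07, 1.38, 1.26, 1.13 and 1.77. The exact 95% intervals of the highest (1.33 to 2.31) and the lowest (0.733 to 1.53) overlapped.

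**Figure D4:**
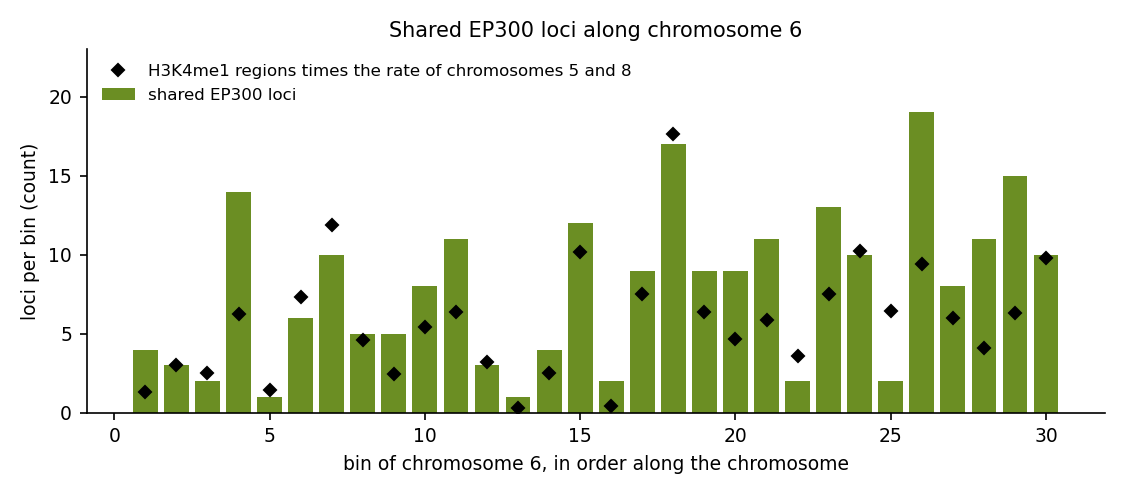
Shared EP300 loci in the 30 bins of chromosome 6, in order (bars, count per bin). Diamonds are the number of H3K4me1 regions in the bin multiplied by the rate of shared loci per region on chromosomes 5 and 8. In 11 of the 28 bins with at least 20 regions the bar is 1.5 or more times the diamond.

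Among the 236 shared loci, 225 (95.3%, exact 95% interval 91.8% to 97.7%) had H3K4me1 within 1000 bp, compared with 96.1% on chromosomes 5 and 8. The centre of 132 loci (55.9%, 49.3% to 62.4%) lay in a gap with H3K4me1 on each side, compared with 62.2% (57.2% to 67.1%), and 41 (17.4%) lay inside a region. The intervals of chromosome 6 and of the yardstick overlapped for each of these shares. The 11 shared loci without H3K4me1 were spread over 9 bins and had fold enrichments of 3.54 to 8.70 in replicate 1 and 3.32 to 9.27 in the other list.

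The strongest loci of the chromosome, ranked by the mean of both significance ranks, lay at many places along it. The best was at 137465859 to 137469548, with 443 and 613 tags in replicates 1 and 2 and a fold enrichment of 27.5 and 28.4. It ranked 3rd of all shared loci, and H3K4me1 lay on one side of its centre only. Next was 97930570 to 97933744, with 351 and 438 tags and 14.7-fold and 15.4-fold enrichment, centred in an H3K4me1 gap of 1000 bp. At 12469988 to 12472055 the enrichment was 17.5-fold in replicate 1 and 28.9-fold in replicate 2, over a gap of 950 bp. At 101257525 to 101259908 it was 28.3-fold and 17.97-fold, over a gap of 700 bp. The locus at 146025456 to 146027620 had 297 tags in each list and was 20.8-fold and 25.2-fold enriched, over a gap of 450 bp.

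The next 5 were also centred in H3K4me1 gaps, of 550 bp to 1400 bp. They lay at 116724366 to 116726105, 116642813 to 116645481, 42462622 to 42464620, 76495512 to 76497925 and 115947728 to 115949969. The locus at 76495512 to 76497925, enriched 13.7-fold and 16.1-fold, was 1 of 2 shared loci in the bin at 75 to 80 Mb, which had 7 H3K4me1 regions. The bin at 115 to 120 Mb held 3 of the 10 loci, although its ratio of shared loci per region was 0.98.

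Over these 236 loci of the same libraries, log10 significance in the 2 lists had a Pearson r of 0.75, with a Spearman rho of 0.64. Summits lay a median of 67.5 bp apart, as against 65 bp on chromosomes 5 and 8. The loci were longer than on the yardstick, with a median of 1681.5 bp compared with 1194.5 bp. Neighbouring loci formed 5 clusters of at least 3 with gaps of up to 10 kb, with 16 loci in all. There were 1 on chromosome 5 and 3 on chromosome 8, but 9 on chromosome 1, 10 on chromosome 4 and 5 each on chromosomes 2 and 3. The largest, at 114824233 to 114844565, held 4 loci over 8 H3K4me1 regions, with fold enrichments between 4.88 and 10.1 in replicate 1 and between 4.49 and 8.65 in replicate 2. The others, of 3 loci each, lay at 48970584 to 48987623, 51937711 to 51949814, 82946362 to 82958369 and 88910676 to 88930870.

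The strongest single-list peaks were found next to H3K4me1. In replicate 2 the peak at 82954023 to 82956877 had 235 tags and a fold enrichment of 7.79, and it lay within the span of the cluster at 82946362 to 82958369. After it came 83085557 to 83088327 (8.47-fold) and 17196072 to 17198587 (7.06-fold). In replicate 1 they were 39194423 to 39195743 (98 tags, 6.85-fold), 31273543 to 31274813 (8.99-fold) and 137513938 to 137515297 (5.58-fold). Without H3K4me1, the strongest in replicate 1 was 145602236 to 145603384, with 70 tags and 9.11-fold enrichment, 4715 bp from the nearest region. It was followed by 13058182 to 13059151 (5.83-fold) and 37682271 to 37683016 (8.09-fold). In replicate 2 these were 20698632 to 20699863 with 60 tags (5.90-fold), which lay in the bin at 20 to 25 Mb with its 25 H3K4me1 regions, 91677787 to 91678731 (5.29-fold) and 119025413 to 119026335 (5.59-fold).

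Of the 3 widest H3K4me1 regions, 2 overlapped an EP300 peak. That at 90649600 to 90656249 was 6650 bp long and overlapped 1 peak of replicate 2 and none of replicate 1. That at 88358500 to 88364049 (5550 bp) overlapped none, and that at 146878200 to 146883649 (5450 bp) overlapped a shared locus. The median length of the regions was 500 bp on chromosomes 5, 6 and 8 alike.

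The single-list peaks without H3K4me1 were weak, as they were on the yardstick chromosomes. Their median significance, in MACS's units of 10 times -log10 of p, was 58.2 in each list, compared with 56.8 and 56.7 on chromosomes 5 and 8, and ranked 2 of 19 autosomes in both. Of these peaks 56.3% and 54.8% were under 60, close to the value of 50 at which the lists begin, compared with 63.9% and 61.9%. The median fold enrichment was 4.90 and 4.72, compared with 6.36 and 5.99 for shared peaks of the chromosome. A peak of this class lay a median of 56394.5 bp from the nearest peak of the other list in replicate 1 and 71331 bp in replicate 2, nearer than the 113618 bp and 119100 bp of the yardstick. This distance depends on the density of the other list. All peaks together stood at 5.62 and 6.77 per Mb, compared with 3.09 and 3.92 on chromosomes 5 and 8. In each list 6 peaks of this class (1.45% and 1.11%) had a peak of the other list within 1000 bp, compared with 1.39% and 0.541% on the yardstick. Within 10000 bp the shares were lower than on the yardstick, at 9.66% and 7.78% compared with 12.5% and 10.0%. The median spacing from one peak of this class to the next was 236538 bp and 190427 bp, compared with 897252 bp and 491560 bp on chromosomes 5 and 8.

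The surplus was found from the lowest to the fourth quintile of significance. When each list was divided into quintiles, the ratio for all peaks without H3K4me1, the few shared ones included, was 3.11, 3.11, 5.90 and 2.47 from the lowest to the fourth quintile in replicate 1, and 2.20, 2.67, 3.41 and 3.96 in replicate 2. The top quintile held only 2 and 1 such peaks, of which 1 in each list was shared. For peaks with H3K4me1 the ratio ran from 1.08 to 1.49 in replicate 1 and from 0.984 to 1.49 in replicate 2. Restricted to the upper 50% of each list, the ratio for single-list peaks without H3K4me1 was 5.84 and 4.01, and 28 and 27 of the 30 bins were at 1.5 or more times the yardstick.

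By their medians, peaks of chromosome 6 were longer, richer in tags and lower in fold enrichment than those of any other autosome, in each of the 3 classes and in both lists. Shared peaks had a median of 86 and 108 tags, compared with 59 and 65 on chromosomes 5 and 8, and a median fold of 6.36 and 5.99 compared with 7.21 and 6.81. Single-list peaks with H3K4me1 had 53 and 60.5 tags compared with 39 and 41.5, and 4.90-fold and 4.57-fold enrichment compared with 5.57 and 5.38. Single-list peaks without it had 34 and 38 tags compared with 28 and 29, and 4.90-fold and 4.72-fold enrichment compared with 5.16 and 5.31. Their median length was 744.5 bp and 820.5 bp, compared with 639.5 bp and 636 bp.

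The background against which MACS judged these peaks was also raised. It was worked out from each peak's tags and significance and is given as a multiple of the genome-wide level, below which MACS does not let it fall. At EP300 peaks of chromosome 6 its median in replicate 1 was 1.24, against 1.05 on chromosomes 5 and 8, and in replicate 2 it was 1.29, against 1.01. Only 15.5% and 14.3% of peaks were at the genome-wide level, compared with 45.2% and 49.1%. At single-list peaks without H3K4me1 the shares were 30.2% and 24.4%, compared with 75.5% and 75.7%, and the medians 1.09 and 1.16 compared with 1.00 in each list. At shared peaks the medians were 1.62 and 1.74, compared with 1.15 and 1.22.

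This background, too, was raised along the whole chromosome. Bin medians ran from 1.03 to 1.47 in replicate 1 and from 1.10 to 1.48 in replicate 2. They were above the yardstick in 28 of 30 bins in replicate 1 (49.5% of autosomal bins) and in 30 of 30 in replicate 2 (59.3%). The exceptions in replicate 1 were the bins at 20 to 25 and 75 to 80 Mb, which had 25 and 7 H3K4me1 regions. In these bins 14 of 17 and 19 of 21 peaks were single-list peaks without H3K4me1, the class with the lowest background. With that class alone, 30 of 30 bins were above the yardstick in each list. The yardstick median was then 1.00, the genome-wide level, and the share over all autosomal bins was not computed. By 25 Mb segments the medians were 1.18 to 1.31 and 1.25 to 1.32, whereas those of chromosomes 5 and 8 ran from 1.00 to 1.15 and from 1.01 to 1.29. Of the 19 autosomes, chromosome 6 had both the highest median background and the most peaks per Mb in each list. On chromosome 18, the next highest in peaks without H3K4me1, the median backgrounds were 1.15 and 1.08, the highest of the other autosomes in each list. Its shares of peaks at the genome-wide level, 31.8% and 38.6%, were the lowest of the other autosomes. In replicate 2, chromosomes 3, 9, 12 and 15 also had a median of 1.08. They held 1.49, 1.39, 1.16 and 1.32 single-list peaks without H3K4me1 per Mb, compared with 2.70 on chromosome 18. Between full bins of chromosome 6, the count of peaks without H3K4me1 and the median background had a Pearson r of -0.46 in replicate 1 and 0.03 in replicate 2. The bin median includes the counted peaks, whose background was the lowest of the 3 classes. A bin with more of them thus tends to a lower median, and the r cannot show how count and background are related. With the number of H3K4me1 regions, the bin background had a Pearson r of 0.54 and 0.50. The part of the background in the surplus was not tested.

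**Figure D5:**
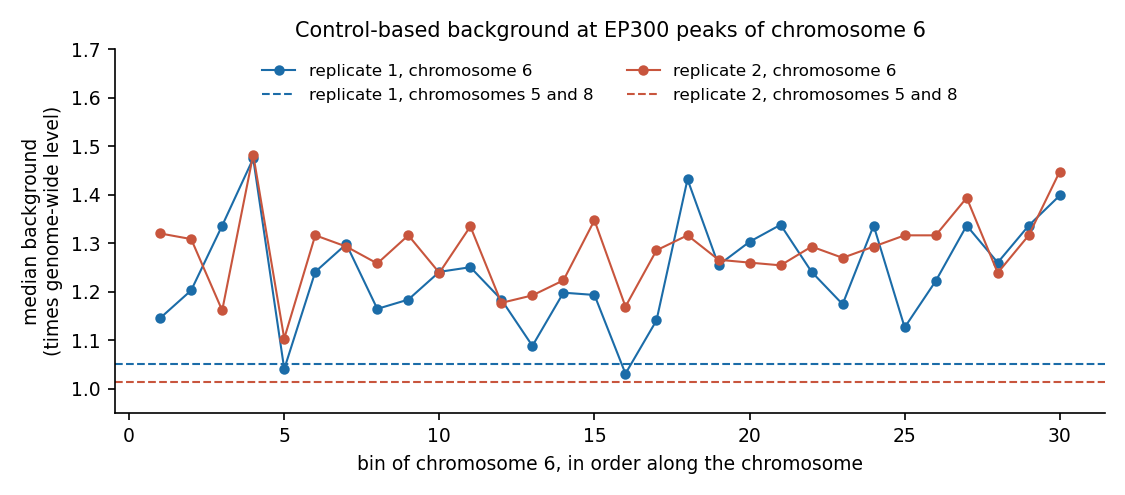
Median control-based background at EP300 peaks in the 30 bins of chromosome 6, in order, as a multiple of the genome-wide level, for replicates 1 and 2. Dashed lines are the medians of chromosomes 5 and 8 (1.05 and 1.01). Of the 30 bins, 28 lie above the line in replicate 1 and 30 in replicate 2.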

How the data were processed

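Per the file headers, the authors called the EP300 peaks of each replicate with MACS 1.4.1 20110627, at a p-value threshold of 1.00e-05, and each had its own control (input chromatin without antibody, per the labels' protocols). Per the file headers, the columns are the tag count, a significance score of 10 times -log10 of the p-value, a fold enrichment ratio and an FDR in percent. The deposited H3K4me1 list gives regions with a rank, a score, a -log10 of the Poisson p-value, a largest log2 enrichment and a q-value. The sources used here do not state its caller or depth, nor the aligner. The build is mm9, per the submitters' processing notes.

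Peaks were placed by their midpoint in bins of 5 Mb, of which 30 cover chromosome 6, and lengths in Mb were taken between the lowest and highest coordinates in the lists. Shared loci needed an overlap of 1 bp, and H3K4me1 was counted within 1000 bp. Ratios to chromosomes 5 and 8 have exact intervals at 95% confidence. Evenness along a chromosome was tested with an exact two-sided binomial test per bin, with Benjamini-Hochberg adjustment over all bins of the 19 autosomes and calls at an adjusted p under 0.05. Ratios of shared loci per bin needed at least 20 H3K4me1 regions. The background was solved from the Poisson tail over the length of the peak, with a minimum window of 400 bp, where the significance was below 1000, and summit heights computed from it were whole to within 0.1 tags for 96.9% and 96.1% of peaks. It could not be solved for 5 and 4 peaks of chromosome 6, which are left out of its medians. A peak was at the genome-wide level below 1.01. The functions were tested on simulated data. Python 3.11.15, numpy 2.4.6, pandas 2.3.3 and scipy 1.17.1 were used.

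Loci are named by rule: the 10 best-ranked shared loci, the 3 strongest single-list peaks of each list with and without H3K4me1, the 3 widest H3K4me1 regions, the largest clusters, and the 3 highest and 3 lowest bins with ties. The members and the lists were chosen with earlier results of these data known. Alternatives covered overlap, H3K4me1 distance, strength, yardstick, bin size and the replicates. Gene positions and genome sequence of mm9 were not used here.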

Additional observations from a re-analysis of the deposited data

How the results depend on the processing

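Of 126 alternative values, of which 10 were added after seeing the data, 110 were counted as close to the reported ones, 16 moved and 0 reversed. The added ones classed the peaks of a list without using the other replicate. Some values counted as close still changed in size. For shared loci, the bins above the yardstick ran from 60% to 86.7% among them (64.3% reported). Those at 1.5 or more times ran from 28.6% to 50% (39.3% reported). Per Mb the shared ratio of 1.35 was 1.17, with an exact interval of 0.987 to 1.37 that included 1. Without a replicate, all peaks of the other list stood in for shared loci, including those far from H3K4me1. The ratio of 1.35 per region was then 2.00 to 2.11, the bins above the yardstick were 100% in each case, those at 1.5 or more times were 82.1% to 85.7%, and 3 to 5 bins were called uneven in place of 0. With length as yardstick, 4 bins were called uneven for shared loci. Single-list peaks without H3K4me1 had a ratio of 5.84 and 4.01 in the upper 50% of each list, and of 2.95 in replicate 1 against all other autosomes. H3K4me1 by summed length gave 0.909. The background ratio, 1.18 and 1.27, was 1.09 and 1.16 at single-list peaks without H3K4me1 alone, and 1.20 in replicate 2 when taken as a lower bound from tags and fold. For these moves the cause was not tested.

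No paired analysis was possible because each antibody is represented by 1 sample and the H3K4me1 replicates were combined in 1 list. The binomial tests take peaks as independent, and peaks that cluster would make their p-values too small. Intervals cover counting error only. Since the H3K4me1 depth is not known, a peak with no region nearby is not shown to lack the mark. Fold enrichment and background depend on the control libraries.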
